A study of Homo sapiens with 7 samples.

Results

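Gene-desert windows are stretches of the human genome in which none of the array's probes carries the name of a gene. Chromosomes 1 to 22 were divided into windows of 250 kb, each probe was placed by its midpoint, and a window counted as a desert when it held 8 or more probes and none of them named a gene or an annotated transcript. Of the 9064 autosomal windows with 8 or more probes, 501 were deserts and 8563 held at least 1 gene-named probe. The choice used the array's annotation and no measured value. All 501 deserts had a value on every array. They held 5101 of the 161223 autosomal probes, with a median of 9 probes per desert window against 18 per gene-named window. A further 940 gene-free windows held too few probes to be counted.

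Replication timing was measured on oligonucleotide arrays that hybridise both fractions together in K562, a line of human chronic myelogenous leukaemia cells, and U2OS, a human osteosarcoma line. Growing cells of every group took up the thymidine analogue bromodeoxyuridine (BrdU) at 50 µM for 2 h, and 80000 cells were sorted by DNA content into early and late S-phase fractions. The BrdU-labelled DNA of both fractions was immunoprecipitated, amplified over the whole genome and hybridised together, the early fraction in Cy3 and the late one in Cy5. The 6 arrays of 180880 features used here were K562 after a new sorting method (n = 1), K562 after the old sorting method (n = 1), U2OS labelled manual (n = 2) and U2OS labelled automated (n = 2), and a seventh array, of 62976 features and labelled 44k, held K562. Neither the step that was automated nor whether arrays came from separate cultures is given in the labels, so p-values measure only the spread between these arrays. The dyes were the same way round on every array, so a dye effect and timing cannot be told apart. Both manual U2OS arrays lay on 1 slide and every other array on its own, so slide and handling, and slide and cell line, cannot be told apart.

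DNA replication starts at many origins and follows a programme in which some megabase-sized domains are copied early in S phase and others late. Gene-rich, transcribed and accessible chromatin is generally early, while gene-poor chromatin, much of it packed as heterochromatin and held at the nuclear lamina, is generally late. Gene deserts are intergenic stretches with no known coding gene. Some of them hold distant enhancers of the developmental genes at their borders, and they are usually AT-rich. Some domains switch between early and late from one cell type to another.

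Each value below is the mean log2(early/late) of a window's probes, set so that 0 is the median autosomal probe of that array. A positive value therefore means earlier, and a negative value later, than that probe. To show what a desert probe looks like, the probe nearest the centre of 7 windows described below is printed 5′ to 3′ as given in the deposited tables, with its hg19 position. The strand is not given in the sources used here, and capitals mark G and C. These windows were chosen as those most different between the cell lines in each direction, a window with almost no K562 signal, and windows among the earliest and the latest.
Later in K562, before ADAMTS9 (chr3:64376621-64376680): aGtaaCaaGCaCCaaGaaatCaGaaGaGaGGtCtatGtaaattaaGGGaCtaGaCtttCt
Earlier in K562, between DTNBP1 and MYLIP (chr6:15871153-15871212): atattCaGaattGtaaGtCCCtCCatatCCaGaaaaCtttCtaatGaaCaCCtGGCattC
Earlier in K562, between SESN3 and FAM76B (chr11:95140046-95140105): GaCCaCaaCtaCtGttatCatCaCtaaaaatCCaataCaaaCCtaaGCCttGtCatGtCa
Almost no K562 signal, between LINGO2 and ACO1 (chr9:31367313-31367372): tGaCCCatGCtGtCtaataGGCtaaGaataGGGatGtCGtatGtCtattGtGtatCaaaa
Early in both lines, before TOMM20 (chr1:235132570-235132629): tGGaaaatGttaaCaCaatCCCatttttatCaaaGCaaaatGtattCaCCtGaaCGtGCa
Early in both lines, between LSG1 and XXYLT1 (chr3:194633469-194633528): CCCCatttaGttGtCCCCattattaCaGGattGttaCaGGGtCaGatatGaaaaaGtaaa
Late in both lines, before HAO1 (chr20:7624458-7624517): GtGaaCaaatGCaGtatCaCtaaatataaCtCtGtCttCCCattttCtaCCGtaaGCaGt
The 7 probes are 60 bases long and hold between 20 and 23 G or C bases. The central probe of the window chr1:219000001-219250000, described below but not printed, holds 16.

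Signal in the deserts differed between arrays. A probe counted as well above background when the scanner software marked it so in at least 1 channel. On the automated U2OS arrays no desert window had under 50% of its probes above background. The number was 25 on the new-sorting K562 array, 78 on the old-sorting K562 array, and 36 and 126 on the manual U2OS arrays. In the deserts a smaller share of probes was above background in the early than in the late channel on all 6 arrays. In gene-named windows the early share was also the smaller on old-sorting K562 (46.3% against 77.8%) and on both automated U2OS arrays. There it was the larger on new-sorting K562 and on both manual U2OS arrays. On the old-sorting array 25.3% of desert probes, averaged over windows, were above background in the early channel against 79.4% in the late channel, and in 412 of 501 deserts under 50% of the probes were. On the new-sorting array the shares were 67.8% early and 77.9% late. On manual U2OS 1 they were 53.7% and 70.1%, and on automated U2OS 1 and 2 they were 80.4% and 97.9%, and 70.7% and 98.96%. On manual U2OS 2 both channels were dim, with 46.9% and 53.0%, and in 202 deserts under 50% of the probes were above background in the late channel. The old-sorting K562 array stood apart from the other 5 in the deserts. A stretch of chromosome 9 had almost no signal on either K562 array. The results on the cell lines and the sorting methods are given with and without that stretch, and the calls between the lines also with each K562 array alone.

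The deserts replicated late on every array. In K562 the desert median was -2.76 after new sorting and -1.01 after old sorting. In U2OS it was -1.58 (manual 1), -1.71 (manual 2), -2.09 (automated 1) and -1.95 (automated 2). The medians of gene-named windows lay between 0.03 and 0.21, so all 6 desert medians lay well below all 6 gene-named medians. The desert minus gene-named difference was -1.97 ± 0.61 (SD, n = 6 arrays) and was negative on 6 of 6 arrays. The exact two-sided sign-flip permutation test over arrays gave p = 0.03125, the smallest that 6 arrays allow, and 0.0417 after adjustment over the 4 exact tests made here. Arrays of a line are not independent samples of different cell types, so this test speaks for these 6 arrays.

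**Figure D1:**
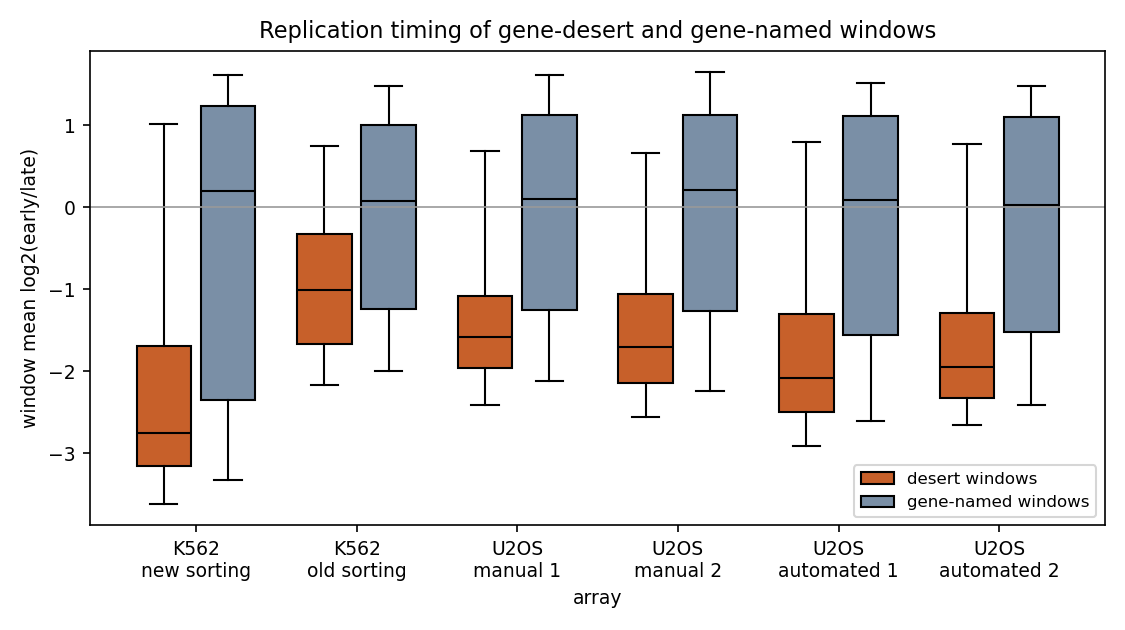
Window mean log2(early/late) on each array for the 501 desert windows and the 8563 gene-named windows. Boxes span the 25th to the 75th percentile with the median as a line and whiskers reach the 5th and the 95th percentiles. The desert medians, from -2.76 to -1.01, all lie below the gene-named medians, from 0.03 to 0.21.

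Counted window by window, between 83.2% (old-sorting K562) and 90.6% (manual U2OS 1) of deserts lay below 0, where 46.3% to 49.5% of gene-named windows did. Below 0 on all 6 arrays were 379 deserts, or 75.6%, against 33.8% of gene-named windows. With the old-sorting array left aside, 418 deserts were below 0 on the other 5. Above 0 on all 6 arrays were 18 deserts, or 3.59%, against 38.0% of gene-named windows. The remaining 104 deserts had both signs, among them the 10 of the chromosome 9 stretch described below. In rank, the median desert stood at the percentile 17.6 to 19.1 of all windows on the U2OS arrays, at 20.0 on the new-sorting K562 array and at 31.0 on the old-sorting one. Deserts were therefore late but not the latest windows of the genome, and the arrays other than the old-sorting one placed them within a few percentiles of each other.

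The windows next to the rule's edge were late as well. Windows with 1 gene-named probe (198 windows) had array medians from -2.42 to -0.99, and those with 2 such probes (198 windows) from -1.94 to -0.92. Windows with 3 to 5 ran from -1.71 to -0.85, those with 6 to 10 from -0.47 to -0.15, and the medians were above 0 on every array from 11 gene-named probes upward. On each array the median climbed from class to class up to 11 to 15 gene-named probes. Deserts with exactly 8 probes (178 windows) had medians from -2.75 to -0.86, and the gene-free windows with 7 probes that just missed the rule (216 windows) had medians from -2.74 to -1.10.

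**Figure D2:**
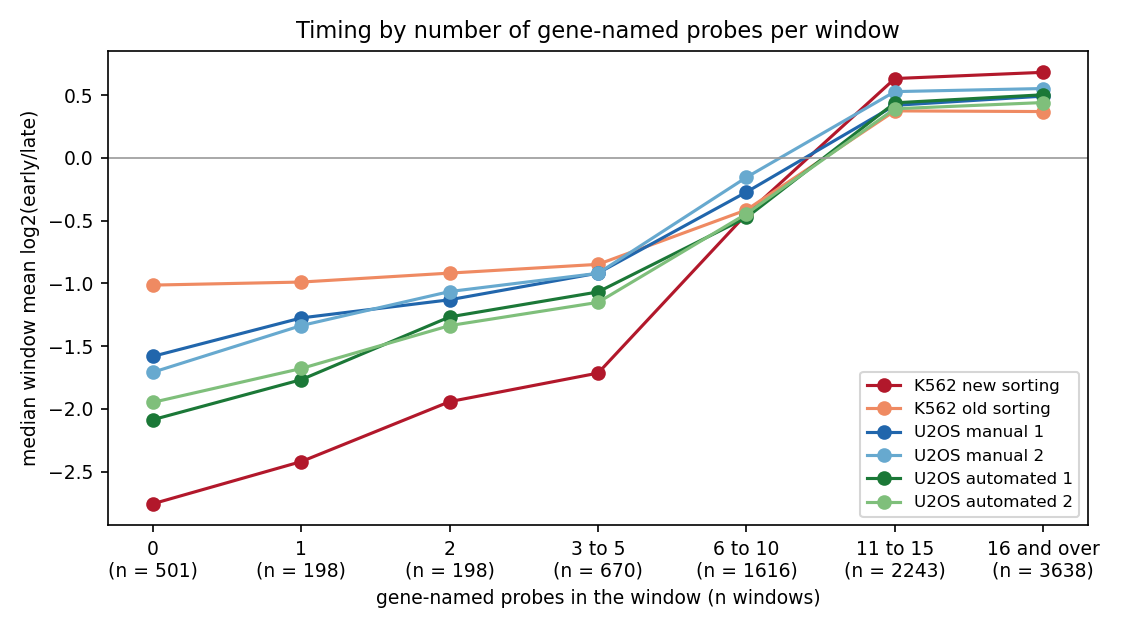
Median window mean log2(early/late) on each of the 6 arrays by the number of gene-named probes in the window, with the number of windows in each class under the axis. Deserts are the class at 0, and every array passes from below 0 at 6 to 10 gene-named probes to above 0 at 11 to 15.

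Base composition of the probes hardly separated the deserts from other windows. The median GC content of a window's probes was 36.3% in deserts, with a range from 32.0% to 38.1%, and 36.5% in gene-named windows, which ranged from 26.3% to 42.6%. CpG dinucleotides numbered 0.366 ± 0.199 per probe (SD, n = 501 windows) in deserts and 0.414 ± 0.176 (n = 8563) in gene-named windows. These values describe the probe sequences, which the array's designers selected, and not the whole window. Mean probe length was 60.0 bases in deserts and 59.6 in gene-named windows.

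Among the deserts themselves timing varied little with probe GC. Pearson's r across the 501 desert windows lay between -0.03 (old-sorting K562) and 0.09 (automated U2OS 1), against 0.15 to 0.27 across gene-named windows. These are descriptions across windows of 1 array, which share its hybridisation and their neighbours. The 23 deserts under 35% GC had a mean of -1.91 on automated U2OS 1, the 424 with 35 to 37% had -1.75, and the 54 with 37 to 39% had -1.63. Automated U2OS 2 rose likewise, from -1.79 to -1.57. The manual U2OS and the K562 arrays did not rise through the bands, and new-sorting K562 had -2.13, -2.24 and -2.24. No desert had a GC of 39% or more. The 18 deserts early on all 6 arrays had a median GC of 36.5%, and the 379 late on all 6 had 36.3%.

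Compared within fixed bands of probe GC, the deserts remained late. The band from 35 to 37% held 424 of 501 deserts and 6614 of 8563 gene-named windows, so banding could change the difference little. The desert minus gene-named difference of means within bands was -1.30 ± 0.30 (SD, n = 6 arrays), and without bands it was -1.38 ± 0.32. It was negative on 6 of 6 arrays, with an exact two-sided sign-flip p of 0.03125 (0.0417 adjusted). On single arrays the difference within bands ran from -1.71 (new-sorting K562) to -0.77 (old-sorting K562).

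**Figure D3:**
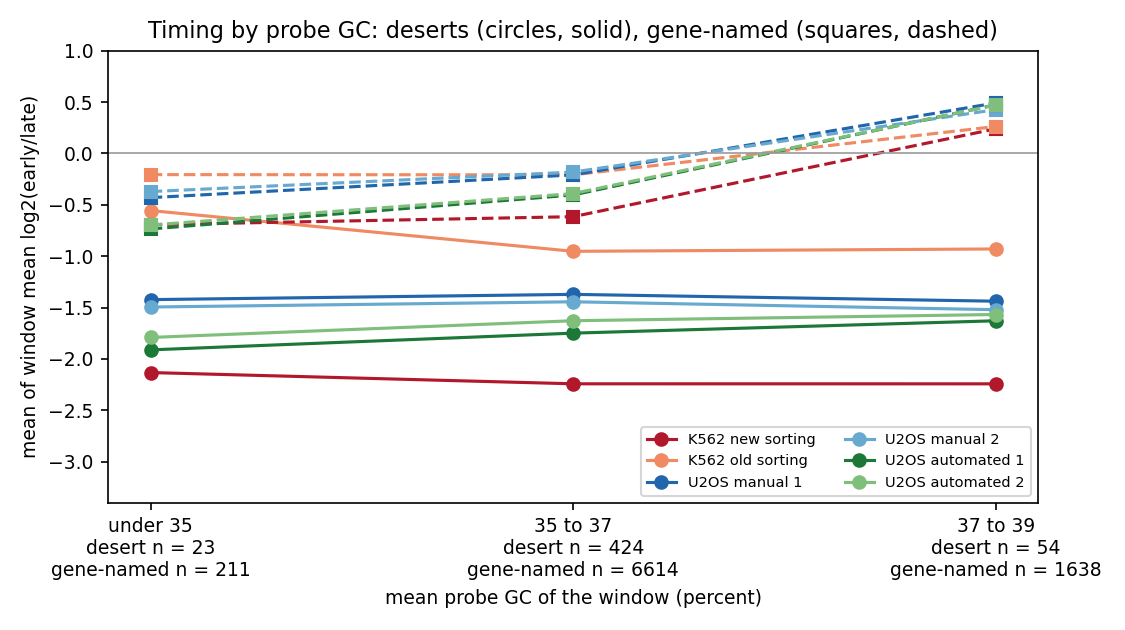
Mean of the window mean log2(early/late) in bands of mean probe GC, for deserts (circles, solid lines) and gene-named windows (squares, dashed lines) on the 6 arrays. Gene-named windows are earlier in the band from 37 to 39% than in the band from 35 to 37% on all 6 arrays, while the desert lines stay nearly level apart from old-sorting K562, which goes from -0.56 under 35% to -0.95 at 35 to 37%.

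The deserts were spread over all 22 autosomes but unevenly. Chromosome 13 held 52 of them, 16.3% of its windows. Chromosome 9 held 40 (10.4%) and chromosome 14 held 29 (9.90%). The gene-dense chromosomes 17, 19 and 22 held 2 each. In U2OS the median of the line mean over a chromosome's deserts lay between -2.09 (chromosome 3) and -0.82 (chromosome 20, 8 deserts), so on no chromosome was the median desert early in this line.

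Most deserts stood alone: 338 of the 501 had no desert window beside them, and the 501 formed 407 stretches. The 940 gene-free windows with too few probes did not count as deserts and so could end a stretch. Stretch length therefore depends on probe density too, and the median distance between the gene-named probes flanking a desert was 786 kb. There were 50 stretches of 2 windows, 14 of 3, 4 of 4 and 1 of 5. Of the single windows 87.3% were late in U2OS by the mean of its 4 arrays, of those in stretches of 2 to 3 windows 97.2%, and of the 21 in longer stretches all were. The longest stretch lay at chr7:118000001-119250000, beyond ANKRD7 and before KCND2, which encodes a voltage-gated potassium channel. Its mean was -3.17 on new-sorting K562, -2.03 on old-sorting K562, -1.77 and -1.87 on manual U2OS, and -2.55 and -2.13 on automated U2OS. Every one of its windows was late on every array, the values running from -3.72 to -1.41. The stretch of 4 windows at chr2:35500001-36500000, on the side of CRIM1, had means of -2.31 in K562 and -1.82 ± 0.34 (SD, n = 4) in U2OS. That at chr9:1000001-2000000 had -2.23 and -1.41 ± 0.08. The nearest probes with a symbol beside it name DMRT3, a transcription factor gene, and SMARCA2, an ATPase of the SWI/SNF chromatin remodelling complex. Gene coordinates were not used, so a gene without a named probe could lie inside any stretch. Of equal length but with fewer probes was the stretch at chr3:163250001-164250000, before SI, the sucrase-isomaltase gene, which had -1.65 and -1.90 ± 0.21. The means of these 4 stretches were late on all 6 arrays.

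Distance to the nearest gene-named probe, measured from the window centre, had a median of 211 kb and reached 1745 kb. Of the 293 deserts under 250 kb from such a probe, 85.3% were late in U2OS and 85.0% in K562. Between 250 and 500 kb the shares of 152 deserts were 98.0% and 96.1%, and between 500 and 1000 kb all 45 deserts were late in both lines. The 11 deserts at 1000 kb or more were late in K562 without exception and late in U2OS in 90.9%. The 1 exception is chr21:9750001-10000000, beside the centromere, with a mean of 1.02 in U2OS and -0.20 in K562. Leaving out the chromosome 9 stretch described below, where K562 had almost no signal, the K562 shares were 85.5% and 97.3% in the nearer classes, and all 43 and all 11 deserts of the further ones were late. The median on automated U2OS 1 went from -1.92 in the nearest class to -2.50 at 500 to 1000 kb, and was -2.21 in the furthest class. The nearest class had the least negative median on every array except old-sorting K562. Only on manual U2OS 2 did the median fall from class to class throughout, from -1.53 to -2.16. On the old-sorting K562 array the medians were -0.999 in the nearest class, then -1.18, -0.88 and -0.69.

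The nearest gene-named windows on both sides were late too. Their median, taken as the mean of the 2 flanking windows, lay between -2.04 (new-sorting K562) and -0.81 (old-sorting K562). A desert was later than its own flanks by a median of 0.18 to 0.41, which averaged over arrays as a desert minus flank difference of -0.25 ± 0.08 (SD, n = 6). This was negative on 6 of 6 arrays (exact two-sided sign-flip p = 0.03125, 0.0417 adjusted), and on single arrays 314 to 346 of the 501 deserts were later than their flanks. Across deserts, Pearson's r between a desert and its flanks was 0.70 to 0.84, a description of neighbours on the same array. The median difference from the flanks was smaller in size than the -1.97 that separated deserts from gene-named windows at large. The former is a median of differences within pairs and the latter a difference of medians, so the 2 are not the same measure.

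Arrays differed in how alike they ranked the deserts. Pearson's r across the 501 windows was 0.97 for the automated U2OS pair, 0.90 for the manual pair and 0.84 to 0.87 between manual and automated arrays. Across gene-named windows these values were 0.99, 0.96 and 0.93 to 0.94. Between the K562 arrays r was 0.64 across deserts and 0.91 across gene-named windows. New-sorting K562 against U2OS gave 0.57 to 0.61 in deserts, and old-sorting K562 against U2OS gave 0.30 to 0.32. Deserts span a narrower range of timing than gene-named windows and hold fewer probes, a median of 9 against 18. The part of either in the lower correlations was not tested.

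K562 and U2OS did not differ in the overall timing of deserts beyond the spread of the arrays. The mean of the array medians was -1.88 ± 1.23 (SD, n = 2) in K562 and -1.83 ± 0.23 (n = 4) in U2OS, a difference of -0.05 (exact two-sided permutation test, p = 0.933). With 2 arrays against 4 this exact test cannot go below p = 0.133. The K562 arrays lay on either side of U2OS. Against the U2OS mean, 403 of 501 deserts were later on the new-sorting array, with a median difference of -0.86. On the old-sorting array 367 were earlier, with a median difference of 0.64. Without the chromosome 9 stretch these counts were 402 and 358 of 491, with medians of -0.87 and 0.63. Of gene-named windows 58.8% were later than the U2OS mean on the new-sorting array (median difference -0.16). On the old-sorting array 49.9% of them were later (median difference 0.002).

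Single windows did differ between the lines. limma, fitted to all 9064 windows, called 81 of the 501 deserts (16.2%), requiring an absolute difference of 1 or more besides an adjusted p below 0.05. Over all windows 22.6% were called. Without the minimum difference 86 deserts (17.2%) were called, against 26.9% of all windows. Of the 81 deserts, 38 (7.58%) were earlier in K562, where 9.75% of all windows were, and 43 (8.58%) were later in K562, where 12.9% of all windows were. In all 81 the values of the K562 arrays and the U2OS arrays did not overlap. Among all deserts 136 did not overlap, or 27.1%, against 46.2% of all windows, and without the chromosome 9 stretch 126, or 25.7%. Of the called deserts, 47 (9.38% of deserts) had line means on opposite sides of 0, against 13.8% of all windows, and 43 did so without that stretch. By sign on every array, 18 deserts (3.59%) were late on both K562 arrays and early on all 4 U2OS arrays, against 6.11% of gene-named windows. The reverse held for 15 deserts (2.99%), against 5.21% of gene-named windows. Of the 43 called later in K562, 20 were below 0 on all 6 arrays, and so were late in both lines by different amounts. Called deserts had a median probe GC of 36.5% against 36.3% in those not called, and lay 177 kb from the nearest gene-named probe in the median, against 228 kb.

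The number of calls turned on which K562 array was used. With the new-sorting array alone most called deserts were later in K562, and with the old-sorting array alone most were earlier. A lone K562 array is assumed in these fits to vary like the U2OS arrays. Of the 81 windows, 59 kept their call and direction with either K562 array alone. Without the chromosome 9 stretch the main directions with each array alone were the same, and 50 of the remaining 72 calls were kept with either. Other processing changed the count too: 36 deserts were called (12 earlier) when the ratios were rebuilt from raw spot signals with normexp background correction and an offset of 50, and 21 (12 earlier) when those signals were also normalized by loess. Both alternatives also drop the spatial detrending and the linear dye normalization of the deposited ratios. Shares over all windows are not given for these alternatives, so the counts do not show whether deserts changed more than other windows.

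**Figure D4:**
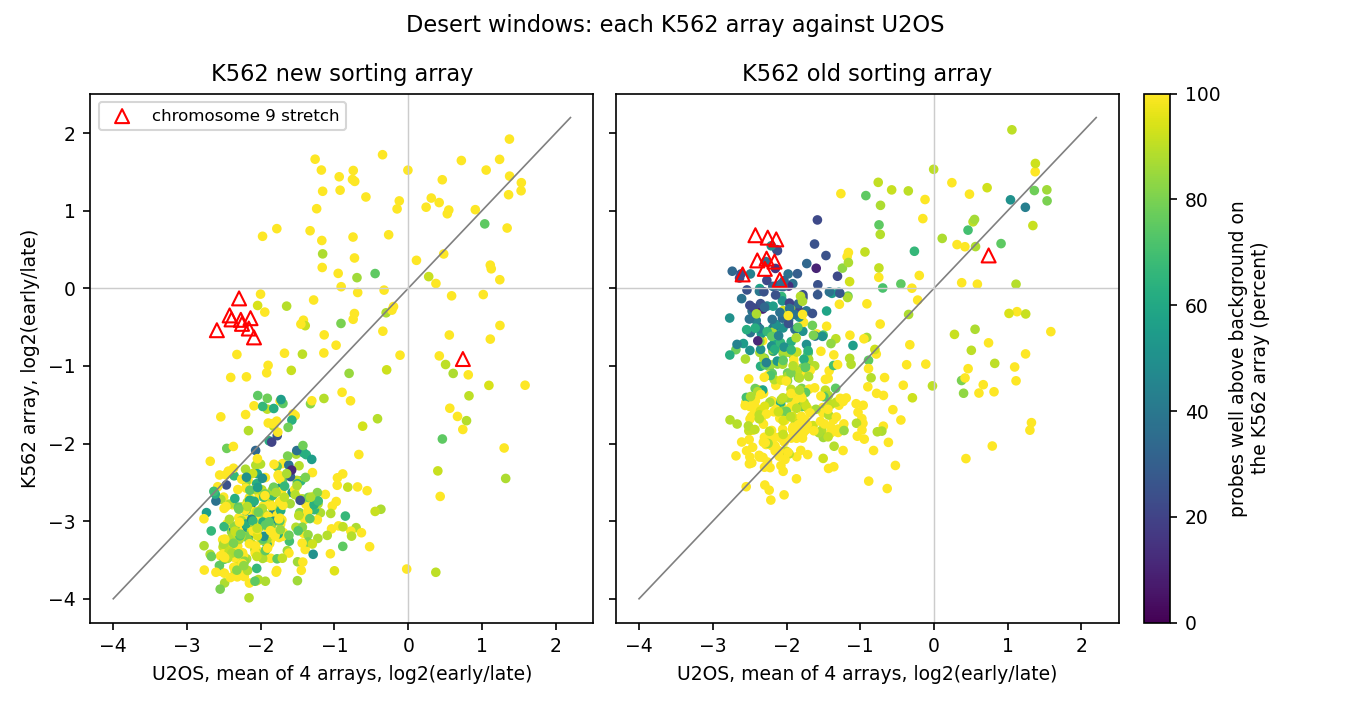
Window mean log2(early/late) of the 501 deserts on each K562 array against the mean of the 4 U2OS arrays. Colour gives the percent of a window's probes well above background on that K562 array, the diagonal marks equal values, and red triangles mark the 10 deserts of the chromosome 9 stretch. Most points lie below the diagonal on the new-sorting array (403 of 501) and above it on the old-sorting array (367 of 501), where the dim windows lie near 0.

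Part of the list called earlier in K562 was a stretch of chromosome 9 without K562 signal. Between bases 20750001 and 31750000 lay 10 desert windows. On the new-sorting K562 array 0 to 25% of a window's probes were well above background there, and on the old-sorting array 0 to 27.3%. On the U2OS arrays it was 36.4% to 100%. The K562 log ratios there lay between -0.91 and -0.13 on the new-sorting array and between 0.11 and 0.68 on the old-sorting one, where neither channel carries a usable level. In U2OS 9 of the 10 windows were negative on all 4 arrays, with means from -2.60 to -2.09, and 1 had a mean of 0.74. The fit called 9 of the 10 as earlier in K562, which leaves 29 such deserts elsewhere, and none as later. K562 has no timing value in these windows, so they support no statement on a difference between the lines. Outside the stretch 13 further deserts had under 50% of their probes above background on both K562 arrays.

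In the deserts most later in K562, both K562 arrays were late and the U2OS mean was above 0. The window chr3:64250001-64500000 lies between PRICKLE2, a gene of planar cell polarity, and ADAMTS9, which encodes a secreted metalloprotease, whose nearest probe is 140 kb from the window centre. It gave -2.45 and -1.73 on the K562 arrays (new, then old sorting), 1.47 and 1.89 on manual U2OS, and 0.97 and 0.95 on automated U2OS. Every U2OS array was early and both K562 arrays late, a difference of -3.41 ± 0.35 (SE; limma adjusted p = 0.000793).

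The window chr1:219000001-219250000, between TGFB2, which encodes transforming growth factor beta 2, and LYPLAL1, was late in K562 at -2.68 and -2.19. In U2OS it was near the genome's middle, at -0.14, 0.54, 0.69 and 0.65. The difference was -2.87 ± 0.30 (limma adjusted p = 0.000843). Both K562 arrays were late, and 3 of its 4 U2OS arrays were above 0.

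The window chr3:30250001-30500000, between RBMS3, an RNA-binding protein gene, and TGFBR2, a receptor of transforming growth factor beta, gave -3.66 and -1.19 in K562 and 0.68, 0.64, 0.01 and 0.17 in U2OS. The lines did not overlap, but the K562 arrays were further apart here than in the windows on chromosome 1 and before ADAMTS9. The difference of -2.80 ± 0.62 (limma adjusted p = 0.0152) was no longer called after normexp (adjusted p = 0.0935) or loess (adjusted p = 0.0692). It was -4.03 without the old-sorting and -1.56 without the new-sorting array.

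Of the 4 regions that ranked highest among those earlier in K562, 3 lay in the chromosome 9 stretch, at chr9:25500001-25750000, chr9:31250001-31500000 and chr9:29750001-30000000. U2OS was late in all 3, with means of -2.42 ± 0.37, -2.60 ± 0.17 and -2.40 ± 0.43 (SD, n = 4), and K562 had no usable signal. The remaining one, chr6:15750001-16000000, lies 223 kb beyond DTNBP1, which encodes dysbindin, and 256 kb before MYLIP, a ubiquitin ligase acting on the LDL receptor. K562 was early at 1.66 and 1.22, and U2OS was late at -1.36, -1.35, -1.21 and -1.13. The difference was 2.70 ± 0.21 (limma adjusted p = 0.000477), with probes above background in at least 87.5% on every array.

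The next 3 regions outside chromosome 9 were added after the values had been seen. The window chr11:95000001-95250000 lies between SESN3, a stress-responsive sestrin gene, and FAM76B. It gave 1.26 and 1.19 in K562 and -0.77, -0.89, -1.27 and -0.77 in U2OS, a difference of 2.15 ± 0.22 (limma adjusted p = 0.000799). The neighbouring desert window was called in the same direction. The window chr15:96500001-96750000 has NR2F2, a nuclear receptor gene, as the nearest gene with a symbol on its far side. It gave 1.52 and 0.41 in K562 and -1.21, -1.49, -0.995 and -1.01 in U2OS. The window chr20:40250001-40500000, beyond the chromatin remodeller gene CHD6, gave 1.40 and 1.37 in K562 and -0.28, -0.75, -1.04 and -0.96 in U2OS. These 2 differed by 2.14 ± 0.34 and 2.14 ± 0.26 (limma adjusted p = 0.0036 and 0.0014). In all 3 both K562 arrays were early and all U2OS arrays late.

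A few deserts were early in both lines, and the earliest is described here by its values without a test. The window chr1:235000001-235250000, between IRF2BP2 and TOMM20, which encodes a receptor of the mitochondrial import machinery, gave 1.92 and 1.502 in K562 and 1.20, 1.23, 1.59 and 1.46 in U2OS. The window chr3:194500001-194750000, between LSG1, a ribosome biogenesis GTPase gene, and XXYLT1, gave 1.45 and 1.61 in K562 and 1.12, 1.43, 1.51 and 1.45 in U2OS. In both, all 6 arrays were early and the lines overlapped. The window chr1:39000001-39250000, before RRAGC, which encodes a GTPase of amino acid signalling to mTORC1, gave 1.52 and 2.04 in K562 and 0.88, 0.62, 1.54 and 1.19 in U2OS.

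The latest deserts were late on every array. The window chr2:60000001-60250000 gave -3.65 and -2.56 in K562 and -2.92, -2.47, -2.48 and -2.31 in U2OS. The window chr20:7500001-7750000, between BMP2, a bone morphogenetic protein gene, and HAO1, a liver hydroxyacid oxidase gene, gave -3.63 and -1.69 in K562 and -2.69, -2.52, -3.17 and -2.68 in U2OS. The window chr7:109500001-109750000, whose nearest gene with a symbol on the far side is IMMP2L, a mitochondrial inner membrane peptidase gene, gave -3.66 and -1.98 in K562 and -2.41, -2.52, -3.10 and -2.40 in U2OS. In all 3 the new-sorting K562 array gave the lowest of the 6 values. Neither of the differences between lines at chromosomes 20 and 7 kept its sign when 1 K562 array was left out.

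**Figure D5:**
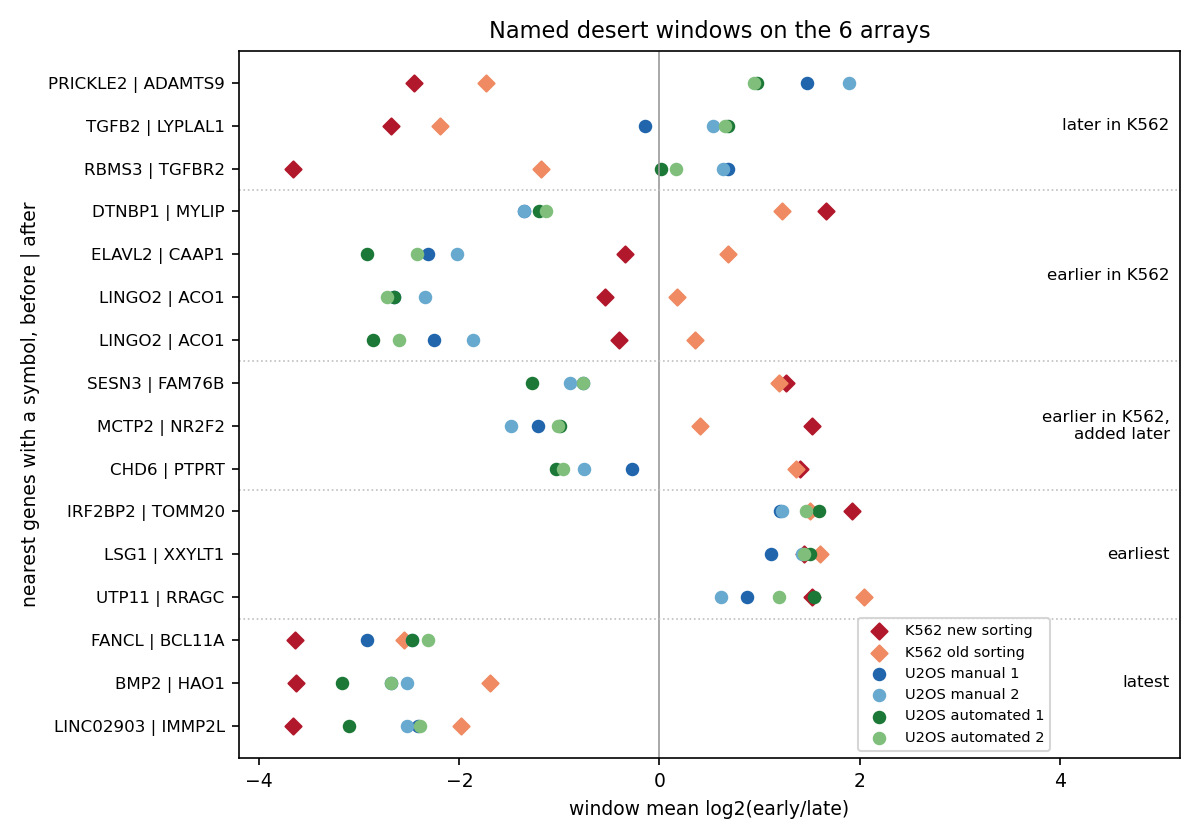
Window mean log2(early/late) of 16 named desert windows on the 6 arrays, K562 as diamonds and U2OS as circles, with the nearest genes that carry a current symbol on each side. Dotted lines separate the sets: later in K562, earlier in K562, 3 regions added later, earliest and latest. In the 3 rows of the chromosome 9 stretch (ELAVL2 to CAAP1 and both from LINGO2 to ACO1) the K562 diamonds lie near 0, where the arrays had almost no signal.

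The sorting methods were compared on 1 K562 array each, with no replicate check. Between them the new-sorting value was later in 429 of 501 deserts, with a median difference of -1.42, against -0.03 in gene-named windows. The sign differed in 53 deserts, or 10.6% (95% Wilson interval 8.18% to 13.6%, covering counting error only), against 6.08% of gene-named windows. In 43 of the 53 the new-sorting value was below 0 and the old-sorting value above. These include all 10 deserts of the chromosome 9 stretch. Without it the new-sorting value was later in 419 of 491 deserts, with a median difference of -1.44, the sign differed in 43 (8.76%), and in 33 of these new sorting was below 0 and old sorting above. Brightness moved with this difference. Outside the chromosome 9 stretch, the 68 deserts with under 50% of probes above background on the old-sorting array had an old-sorting median of -0.08, and 27 of them were above 0. The 83 with 50 to 80% had -0.75 and the 340 with 80% or more had -1.45. The new-sorting medians of the same classes were -2.75, -2.97 and -2.70, and did not follow this order. Sorting method and array cannot be told apart here.

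In U2OS, automated handling was set against manual handling, 2 arrays each. limma called 31 deserts (6.19%), where 4.24% of all windows were called. On the automated arrays 27 deserts (5.39%) were later, against 3.3% of all windows, and 4 (0.798%) were earlier, against 0.938%. The array medians were -2.02 ± 0.10 (SD, n = 2) for automated and -1.64 ± 0.09 for manual arrays, and in gene-named windows 0.06 ± 0.04 and 0.16 ± 0.07. The manual and the automated arrays did not overlap in 317 deserts (63.3%), against 65.4% of all windows. The direction of the desert calls changed with the processing, and shares over all windows are not given for these alternatives. Whether other windows changed likewise is therefore not shown. When only probes above background were used, 428 deserts kept a value, 21 were called and 14 of them were earlier on the automated arrays. With windows under 50% bright on any array left out, 331 deserts remained, 14 were called and 4 of these were earlier, and none of 49 calls after normexp and none of 44 after loess was earlier. The manual arrays were the dimmer pair, with 53.7% and 46.9% of desert probes above background in the early channel against 80.4% and 70.7% on the automated arrays.

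The seventh array, K562 on the smaller design, had at least 3 probes in 244 of the deserts. It carries no replicate, and 14.5% of its log ratios were written as exactly 0. Over the whole array 8.82% of its probe spots were well above background in the late channel, against 88.3% in the early channel, so the late signal behind its values was mostly at background. Its median over those deserts was -1.30, where the new-sorting array had -2.77 and the old-sorting array -1.19, and 87.3% of them were late. Its Pearson r was 0.85 with the new-sorting and 0.68 with the old-sorting array, so it ranked the deserts more like the former while its median was nearer the latter.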

How the data were processed

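Two-colour arrays were read from the deposited scanner tables. Per the file headers, Agilent Feature Extraction 11.5.1.1 (protocol CGH_1105_Oct12, build hg19) wrote them, while the submitters' processing notes name version 9.1. Per the file headers, the authors' deposited log10 ratio is late over early after background subtraction, spatial detrending and linear dye normalization, and the deposited spot intensity columns are raw signals with their local background. The log10 ratio was turned to log2(early/late). Spots marked as outliers were dropped, saturated ones kept, and each array was centred on its median autosomal probe. Repeated probes were averaged, then probes per window, with at least 3 kept probes per array. Intensity served the normexp (offset 50) and loess alternatives only.

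Windows were tested with limma 3.58.1 in R 4.3.3 over all 9064 windows, with Benjamini-Hochberg adjustment, and values per array with exact permutation tests in Python 3.11.15. The limma step was tested on simulated data. Flanking genes are the nearest probes whose array name matched a current symbol in RefSeq's gene table (16757 of 24772 names), and its coordinates were not used. Named windows are the 4 regions per direction with the largest difference between the lines among called windows without overlap, the 3 longest stretches (of equally long ones, those with more probes), and the 3 earliest and 3 latest windows. Of these, 1 window is not reported here, nor is 1 further stretch. The members, lists and rules were chosen with earlier results of these data known. The flank comparison was added after the data were seen. Precision is limited by the number of arrays.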

Additional observations from a re-analysis of the deposited data

How the results depend on the processing

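The desert minus gene-named difference kept its direction and its exact p of 0.03125 under all alternatives that kept 6 arrays, from -2.27 (at least 12 probes per window) to -1.002 (normexp with equal spread), and within GC bands from -1.51 to -0.67. Without each array in turn it ran from -2.14 to -1.77, and within GC bands from -1.40 to -1.22, where the exact test on 5 arrays cannot go below p = 0.0625. The K562 minus U2OS median difference of -0.05 changed sign with arrays scaled to equal spread (0.0841), centring on the mean (0.0702), 500-kb windows (0.12) and the seventh array added (0.0473), and ran from -0.93 to 0.82 without each array in turn. Deserts called between the lines, 81, became 36 with normexp, 51 with normexp and equal spread, 21 with loess, 18 of 114 with a minimum of 12 probes, 22 of 341 in windows of 500 kb, 167 of 1270 with a minimum of 5 probes and 49 of 244 with the seventh array. They ran from 63 to 229 without each array in turn. Of the 81, 38 (46.9%) were earlier in K562, against 33.3% with normexp, 57.1% with loess, 27.8% with at least 12 probes, 59.1% in 500-kb windows and 40.3% without the chromosome 9 stretch, where 72 remained called. The share of deserts with opposite sign on the K562 arrays, 10.6%, was 22.95% with normexp, with or without equal spread, 6.59% with loess and 7.24% without dim probes. It was 7.11% without windows under 50% bright on both K562 arrays and 4.53% without those under 50% bright on any array. The handling calls in U2OS, 31, became 49 with normexp, 3 with normexp and equal spread, 49 with the median of probes, 5 with a minimum of 12 probes, 13 at 500 kb, 87 with a minimum of 5 probes, 14 without windows under 50% bright on any array and 140 with no minimum difference. They ran from 23 to 59 without each array in turn (59 without manual 2, 52 without automated 2). With the replicate number as a block 32 were called. The deviations of same-numbered arrays correlated at -0.06 across windows. With 2 arrays per group this cannot decide whether the numbers pair the arrays. The difference between lines at chr20:7500001-7750000, 0.10, ran from -0.86 to 1.07 without each array in turn. That at chr7:109500001-109750000, -0.21, was 0.10 without dim probes and ran from -1.05 to 0.63 without each array in turn. A random block for slide could not be fitted with 6 arrays on 5 slides. With the arrays of the shared slide averaged, 68 deserts were called between the lines. Alternatives with at least 5 probes, with normexp and equal spread together, with averaged slides and without dim windows or the chromosome 9 stretch were chosen after seeing the data. No share over all windows is given for the calls under these alternatives, so they do not show whether deserts changed more than other windows. Where the cause of a change is not in an alternative's own construction, the cause was not tested.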
